A study of Mus musculus with 10 samples.

Results

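The regions described here are 13124 stretches of the mouse genome listed in a density table named after H3K4me2. Each lies within 500 bp of a region in the H3K4me3 table and of no region in the H3K4me1 table. They make up 45.3% of the 28979 H3K4me2 regions on chromosomes 1 to 19 and X, and are called H3K4me3-adjacent regions below. They were chosen by position alone, with no measured value. The other H3K4me2 regions form 3 classes by the same 500 bp rule: 1994 lie beside H3K4me1 only, 626 beside both marks and 13235 beside neither.

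The study measured, by ChIP-seq, where FLAG-tagged Dnmt3a2 bound and where H3K4me3 lay in J1 mouse embryonic stem cells at passage 7 to 10. All cells were Dnmt TKO, a name used for cells lacking Dnmt1, Dnmt3a and Dnmt3b, so the added Dnmt3a2 was studied without these endogenous enzymes. They expressed WWD, R or WT Dnmt3a2, and the series title says that a histone-recognition domain of Dnmt3a was engineered. Which residues WWD and R change is not given in the labels. The Dnmt3a2 samples were labelled as line 1 or as bulk and the H3K4me3 samples as line 1, and the labels do not name the promoter that drives the constructs.

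Dnmt3a is a de novo DNA methyltransferase that adds methyl groups to cytosines. Dnmt3a2 is its shorter isoform and is abundant in embryonic stem cells. Its ADD domain binds the tail of histone H3 when lysine 4 carries no methyl group, and methylation of that lysine weakens the binding. H3K4me3 typically peaks at the start of active or poised genes, H3K4me2 often lies on the shoulders of such peaks as well as at enhancers, and H3K4me1 is typical of enhancers. Whether the regions described here lie at promoters was not examined. No H3K4me2 or H3K4me1 sample is among those listed. A column named for each of these marks matched no listed sample and was not used. The marks that named these regions were therefore not checked in these cells. The regions carry no gene names and are given by mm9 position.

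The labels list 10 samples, with 2 Dnmt3a2 samples per construct. Each table held 1 Dnmt3a2 column per construct, and its name did not show whether it held line 1, bulk or both. The comparisons below therefore have no replicate check, no test was run and spread between cultures was not measured. The Dnmt3a2 columns stood for 17259400 reads in WWD, 25254320 reads in R and 24015095 reads in WT. The H3K4me3 columns, 1 sample each, stood for 26012284 reads in WWD, 27424019 reads in R and 18801269 reads in WT. Dnmt3a2 signal is the mean number of reads at a region for every 10000000 reads in its library. Brackets hold 95% intervals, which cover counting error only. Reads were copied over 18 PCR cycles without molecular identifiers and came in clumps, so these intervals are too narrow. The input was not analysed here, so values include background.

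The H3K4me3-adjacent regions sat close to their neighbour. All but 1 of them were 100 bp wide, as were all of their nearest H3K4me3 regions. The median gap was 127 bp, with quartiles of 49 and 247 bp. Gaps of 1 to 100 bp held 42.6% of the regions, and gaps over 400 bp held 6.48%. No H3K4me2 region overlapped an H3K4me3 or H3K4me1 region, and the smallest gap to H3K4me3 was 2 bp. The median distance to the nearest H3K4me1 region was 15588 bp. Most stood alone, since 12092 of them had no other within 500 bp and the largest run held 3. H3K4me3 regions lay on both sides of 1838 of them and on one side of 11286.

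The neighbours carried the mark that names them in most cases. Of the 13124 nearest H3K4me3 regions, 6.54% had no H3K4me3 read in WWD cells, 11.0% had none in R cells and 3.54% had none in WT cells. In the whole H3K4me3 table these shares were 11.9% in WWD, 17.9% in R and 8.10% in WT. The median H3K4me3 level of the neighbours was 27.3 reads per 10000000 in WWD, 24.4 in R and 30.8 in WT, against 19.6 in WWD, 17.5 in R and 21.8 in WT over the whole table. H3K4me3 neighbours were thus above the table's median in cells of each construct.

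Dnmt3a2 signal at the H3K4me3-adjacent regions was highest in the WWD column. The mean was 0.450 reads per region in WWD (0.441 to 0.459), 0.233 in R (0.228 to 0.239) and 0.204 in WT (0.1995 to 0.210). WWD was 2.20-fold above WT (2.13 to 2.27) and 1.93-fold above R (1.87 to 1.99). R was 1.14-fold above WT (1.10 to 1.18). The WWD and R ratios share the WT column, so they are not independent of each other. The excess of WWD depended on which regions were kept. At the 1011 regions read in 2 or 3 of the columns, WWD was 1.28-fold above WT, 1.23-fold above R, and R was 1.05-fold above WT. That filter leaves out every region read in a single column, including 2486 read in WWD only.

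Most H3K4me3-adjacent regions held no Dnmt3a2 read in a given column. At least 1 read was present at 25.4% of them in WWD (24.7 to 26.2), at 12.0% in R (11.5 to 12.6) and at 11.6% in WT (11.1 to 12.2). Over all H3K4me2 regions the shares were 29.6% in WWD, 15.6% in R and 16.1% in WT. The share ratio of WWD to WT was 2.18, close to the ratio of reads, while that of R to WT was 1.03. The mean number of reads per occupied region was 3.06 in WWD, 4.91 in R and 4.22 in WT. The other H3K4me2 regions had the same order, at 3.20 in WWD, 5.13 in R and 4.45 in WT. The smallest library thus reached the most regions with the fewest reads at each, and not only at H3K4me3-adjacent regions. How many distinct fragments each library held is not known, so a library of more distinct fragments and a wider spread of WWD cannot be told apart.

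Reads in R were more often piled up at single regions. Regions with 10 or more reads numbered 73 in WWD, 189 in R and 99 in WT, and held 8.37% of all WWD reads, 30.3% of R reads and 18.7% of WT reads. The highest count at an H3K4me3-adjacent region was 21 in WWD, 25 in R and 21 in WT. A single read made up 32.4% of occupied regions in WWD, 24.6% in R and 23.0% in WT. These counts were not made at the other H3K4me2 regions.

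The occupied places were largely different between columns. No column had a read at 7785 regions, or 59.3%, against 45.2% of the other H3K4me2 regions. A read in WWD alone was found at 18.9%, in R alone at 7.26% and in WT alone at 6.77%. Each share was below that of the other H3K4me2 regions, at 20.7% for WWD alone, 9.11% for R alone and 9.93% for WT alone. All 3 columns had a read at 88 regions, or 0.671%, against 1.55% of the other H3K4me2 regions. Of the regions with a WT read, 31.2% also had a WWD read, against 24.6% of those without a WT read. For R the same shares were 16.4% and 11.4%. A read in WWD and WT but not R was found at 2.96%, against 5.63% of the other H3K4me2 regions. The shares for R and WT but not WWD were 1.24% and 2.74%, and for WWD and R but not WT 2.83% and 5.08%. Sharing of single regions between columns was thus low in both sets and is not read as particular to H3K4me3-adjacent regions. The shares among regions with or without a WT read were not computed at the other regions. The comparisons rest on sums over many regions.

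Set against the other H3K4me2 regions, the H3K4me3-adjacent ones held little Dnmt3a2. Their mean was 0.657 times that of regions beside H3K4me1 only in WWD, 0.555 times in R and 0.523 times in WT. Against regions beside neither mark it was 0.739 times in WWD, 0.627 times in R and 0.555 times in WT. The deficit was smallest in WWD in both comparisons. Against regions beside both marks, the mean was 1.07 times in WWD (0.977 to 1.18), 0.779 times in R and 0.739 times in WT. Regions beside both marks averaged 0.419 reads in WWD, 0.300 reads in R and 0.277 reads in WT.

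**Figure D1:**
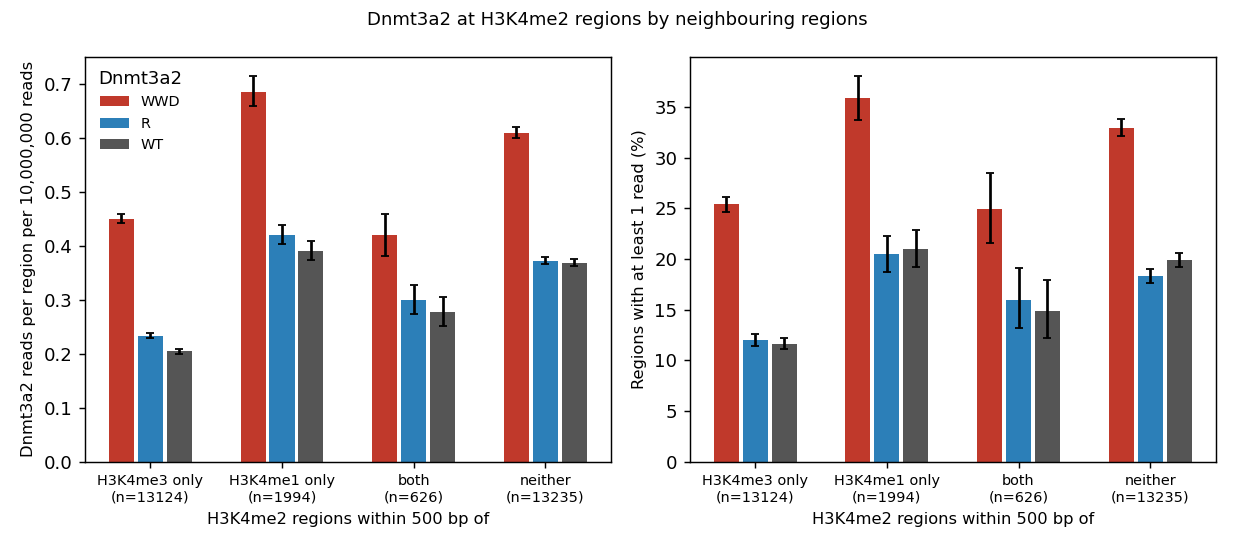
Mean Dnmt3a2 reads per region per 10000000 reads (left) and the share of regions with at least 1 read in percent (right) for the 4 classes of H3K4me2 regions, with 95% exact Poisson and Clopper-Pearson intervals as bars. H3K4me3-adjacent regions (beside H3K4me3 only) had means of 0.450 in WWD, 0.233 in R and 0.204 in WT, below those beside H3K4me1 only, at 0.685 in WWD, 0.421 in R and 0.391 in WT.

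The ratio of WWD to WT was higher at H3K4me3-adjacent regions than in each other class. It was 2.20 there, against 1.75 beside H3K4me1 only, 1.52 beside both and 1.65 beside neither. The ratio at H3K4me3-adjacent regions was 1.26 times that beside H3K4me1 only (1.17 to 1.34), 1.45 times that beside both (1.27 to 1.67) and 1.33 times that beside neither (1.28 to 1.39). Counting each region once, as occupied or not, gave 1.28 (1.14 to 1.44), 1.30 (1.03 to 1.65) and 1.32 (1.23 to 1.41) for the same classes. At regions read in 2 or 3 columns these differences were nearly gone, at 1.05 (0.949 to 1.17), 0.900 (0.705 to 1.15) and 1.07 (1.01 to 1.14). Against the class beside both marks the direction turned, with an interval that includes 1. That filter picks regions by the same reads that are compared and drops those read in a single column. It therefore cannot decide whether the classes differ.

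For R against WT the classes lay closer together. The ratio was 1.14 at H3K4me3-adjacent regions, 1.08 beside H3K4me1 only, 1.08 beside both and 1.01 beside neither. The ratio at H3K4me3-adjacent regions was 1.06 times that beside H3K4me1 only (0.989 to 1.14) and 1.05 times that beside both (0.920 to 1.21), with intervals that include 1. It was 1.13 times that beside neither (1.08 to 1.18).

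On each of the 20 chromosomes WWD was above WT at H3K4me3-adjacent regions. The ratio ran between 1.50 on chromosome 12 and 2.90 on chromosome 6, with a median of 2.29. Over the other H3K4me2 regions of the same chromosomes it ran between 1.29 and 1.99, with a median of 1.65. The ratio at H3K4me3-adjacent regions was the higher one on 18 chromosomes. The exceptions were chromosome 7, with 1.88 against 1.91 at other regions, and chromosome 12, with 1.50 against 1.63. R was above WT on 15 of 20 chromosomes, and its ratio exceeded that of the other regions on 11. Chromosome 14 stood apart in R, where the mean was 0.371 in R and 0.193 in WT, a ratio of 1.92, and WWD exceeded R by 1.19-fold only.

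**Figure D2:**
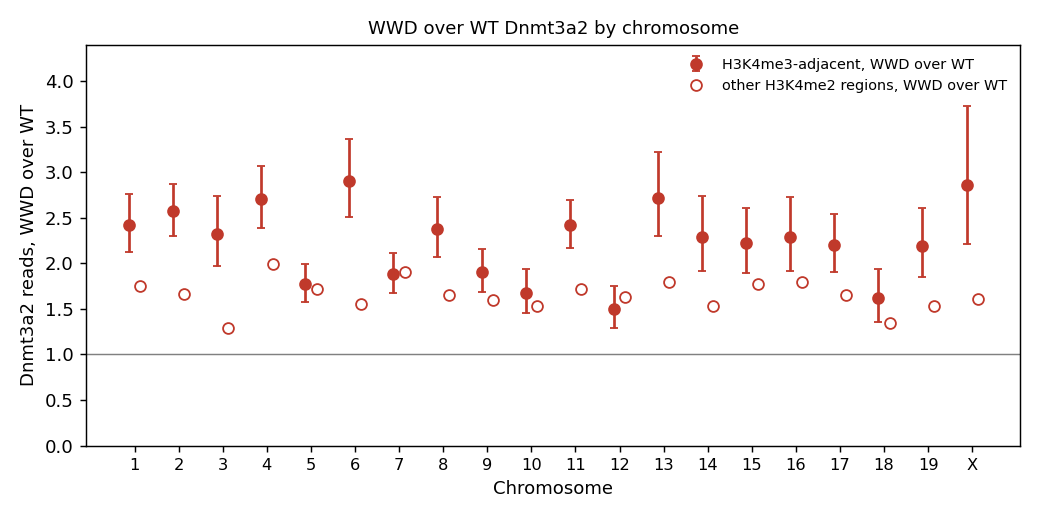
Ratio of WWD to WT Dnmt3a2 reads per library on each chromosome, for H3K4me3-adjacent regions (filled, with 95% exact conditional binomial intervals) and for all other H3K4me2 regions (open). The filled points range between 1.50 and 2.90 and lie above the open ones on 18 of 20 chromosomes.

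Chromosome X had the highest share of such regions and the least signal. Its 433 H3K4me3-adjacent regions were 59.3% of its H3K4me2 regions, the highest share of any of the 20 chromosomes. Their mean was 0.248 reads in WWD, 0.106 reads in R and 0.087 reads in WT. Means on the autosomes lay between 0.388 and 0.526 in WWD, between 0.200 and 0.371 in R and between 0.159 and 0.273 in WT, with no overlap with X in any column. The other H3K4me2 regions on X were also low, at 0.213 reads in WWD, 0.163 reads in R and 0.132 reads in WT, and lay below those of each autosome in every column. X was the only chromosome where WWD signal was higher at H3K4me3-adjacent regions than at the other H3K4me2 regions. The sex of the cells and their number of X chromosomes are not given in the labels. The H3K4me3 level beside them was also low, with a median of 17.05 reads per 10000000 on X. The ratio of WWD to WT on X was 2.86, within the range of the autosomes.

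Dnmt3a2 was followed by distance among H3K4me2 regions with no H3K4me1 within 500 bp. In WT, the mean was 0.185 reads at gaps of 1 to 100 bp, then, in steps of 100 bp up to 500 bp, 0.220, 0.210, 0.216 and 0.238. In WWD the same 5 steps gave 0.433, 0.432, 0.493, 0.422 and 0.577. In R they gave 0.201, 0.225, 0.259, 0.269 and 0.355. The farthest step over the nearest was 1.33 times in WWD (1.24 to 1.43), 1.76 times in R (1.63 to 1.91) and 1.29 times in WT (1.16 to 1.42). Signal was therefore lowest next to H3K4me3 in R and WT.

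The ratio of WWD to WT showed no order with distance inside 500 bp, at 2.34, 1.96, 2.34, 1.95 and 2.42 over the 5 steps. The ratio of R to WT was 1.09, 1.02, 1.23, 1.24 and 1.49, but by shares of occupied regions the last step gave 1.14. Just outside the 500 bp limit, the 594 regions up to 600 bp away averaged 0.548 reads in WWD, 0.338 reads in R and 0.340 reads in WT. The 850 regions just inside it, over 400 bp away, averaged 0.577 in WWD, 0.355 in R and 0.238 in WT. Inside over outside was 1.05 in WWD (0.944 to 1.17), 1.05 in R (0.937 to 1.18) and 0.700 in WT (0.616 to 0.796). The step of both ratios at the limit thus lay in the WT column that they share. The WWD to WT ratio was 1.61 outside and stayed between 1.61 and 1.83 in the steps beyond.

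**Figure D3:**
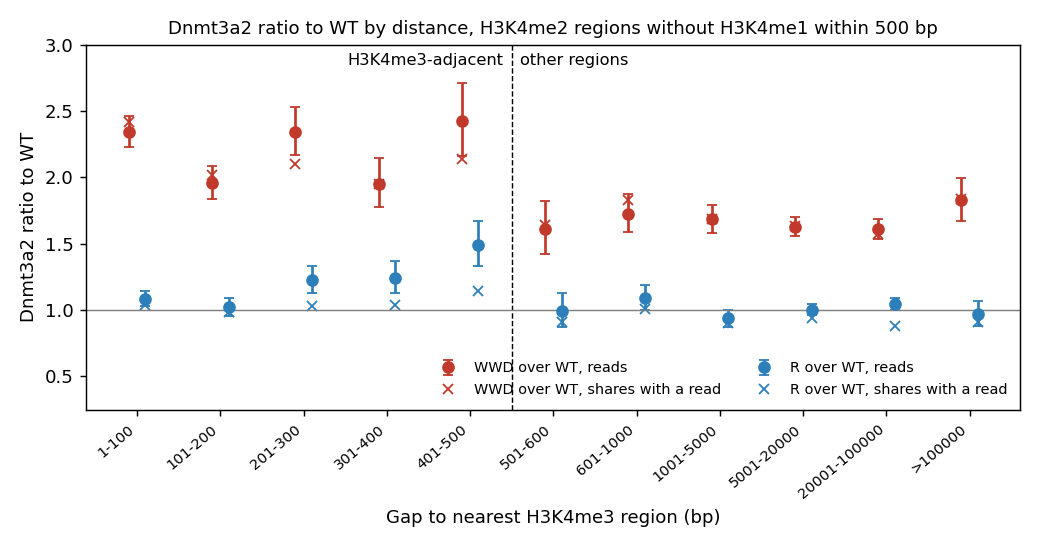
Ratio of Dnmt3a2 in WWD (red) and R (blue) to WT against the gap to the nearest H3K4me3 region in bp, for H3K4me2 regions with no H3K4me1 region within 500 bp; circles are ratios of reads with 95% exact conditional binomial intervals, crosses are ratios of the shares of regions with a read. The 5 WWD points left of the dashed 500 bp line lie between 1.95 and 2.42, and those to its right between 1.61 and 1.83. The R points also step at the line, with 1.49 just inside and 0.994 just outside. From just outside to just inside the line the mean fell in WT, to 0.700 times, while WWD and R were each at 1.05 times.

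Regions flanked on both sides by H3K4me3 held less Dnmt3a2 than those with it on one side. They averaged 0.354 reads in WWD, 0.155 reads in R and 0.130 reads in WT, while one-sided regions averaged 0.466 in WWD, 0.246 in R and 0.217 in WT. Both sides over one side was 0.760 in WWD (0.714 to 0.809), 0.628 in R (0.581 to 0.678) and 0.601 in WT (0.551 to 0.655). The groups also differed in distance, with a median gap of 64 bp for both sides and 144 bp for one side. Among regions within 100 bp of H3K4me3, both sides over one side was 0.798 in WWD (0.737 to 0.863), 0.743 in R (0.673 to 0.819) and 0.614 in WT (0.548 to 0.686). WWD was 2.72-fold above WT with H3K4me3 on both sides (2.46 to 3.01) and 2.15-fold with it on one side (2.08 to 2.22). The first ratio was 1.26 times the second (1.14 to 1.40), and 1.30 times among regions within 100 bp of H3K4me3 (1.13 to 1.49). For R to WT the corresponding values were 1.04 (0.931 to 1.17) over all regions and 1.21 (1.04 to 1.40) within 100 bp. For WWD to R they were 1.21 (1.10 to 1.34) over all regions and 1.07 (0.948 to 1.22) within 100 bp, where the interval includes 1.

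The number of H3K4me3 regions nearby went the same way. WWD was 2.16-fold above WT at the 10282 regions with 1 such neighbour and 2.31-fold at the 2674 with 2. At the 168 regions with 3 or 4 it was 4.70-fold (3.14 to 7.20), from 108 reads in WWD, 46 reads in R and 32 reads in WT. The last class is small and its WT reads lay at 10 regions. Regions with no other H3K4me2 region within 500 bp had a WWD to WT ratio of 2.18, those with 1 had 2.45 and the 38 with 2 or more had 1.91 (0.960 to 3.90).

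Each H3K4me3-adjacent region was then set beside its nearest H3K4me3 region in the same column. In WWD the means were alike, at 0.450 reads at the H3K4me3-adjacent regions and 0.445 at their H3K4me3 neighbours, a ratio of 1.01 (0.985 to 1.04). In R the means were 0.233 and 0.167, a ratio of 1.40 (1.35 to 1.45). In WT they were 0.204 and 0.153, a ratio of 1.34 (1.29 to 1.39). Signal was lower on the H3K4me3 region than on its H3K4me2 neighbour in R and WT, whereas in WWD the interval of the ratio included 1.

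WWD was thus 2.20-fold above WT at H3K4me3-adjacent regions and 2.91-fold at their H3K4me3 neighbours (2.81 to 3.01). The first of these ratios was 0.757 times the second (0.722 to 0.793), and for R to WT the same value was 1.04 (0.993 to 1.10). Some neighbours were counted more than once, since 1652 regions shared theirs, and with each neighbour counted once the value for WWD was 0.761. The neighbour had a read in 24.4% of pairs in WWD, 8.97% in R and 8.80% in WT. This share was slightly higher where the region itself had a read. The neighbour had a read at 25.5% of WWD-occupied regions, against 24.1% of the rest. For R these shares were 10.7% and 8.74%, and for WT 10.7% and 8.55%.

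**Figure D4:**
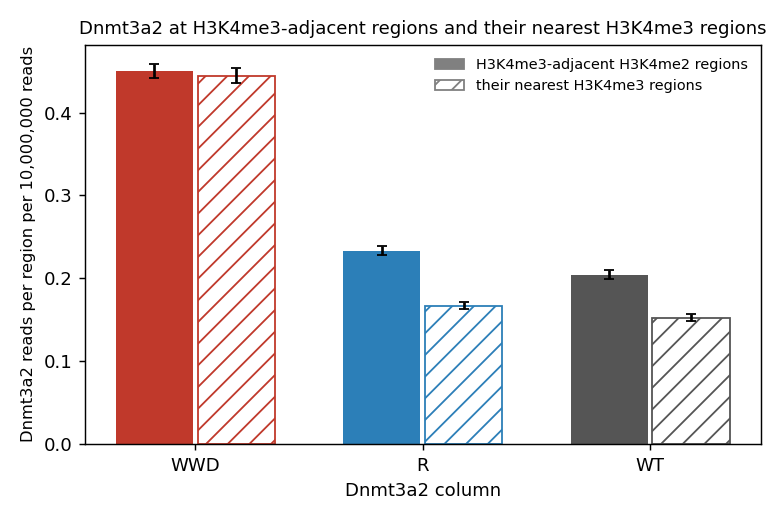
Mean Dnmt3a2 reads per region per 10000000 reads at the 13124 H3K4me3-adjacent regions (solid) and at the nearest H3K4me3 region of each (hatched) in the WWD, R and WT columns, with 95% exact Poisson intervals. The paired bars are 0.450 and 0.445 in WWD, 0.233 and 0.167 in R, and 0.204 and 0.153 in WT.

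Dnmt3a2 signal followed no steady order with the H3K4me3 level beside a region. Regions were ordered into quintiles by the mean H3K4me3 of the nearest H3K4me3 region over the 3 constructs. From the lowest to the highest quintile, WWD averaged 0.550, 0.414, 0.421, 0.372 and 0.493 reads. R averaged 0.265, 0.230, 0.214, 0.205 and 0.254 reads. WT averaged 0.234, 0.202, 0.187, 0.196 and 0.203 reads. The ends stood above the middle in WWD and R, and the lowest quintile was the highest in each column. The ratio of WWD to WT was 2.35, 2.05, 2.25, 1.90 and 2.44 over the quintiles, and in the highest it was 1.04 times that in the lowest (0.944 to 1.14). By shares of occupied regions it lay between 2.13 and 2.26.

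**Figure D5:**
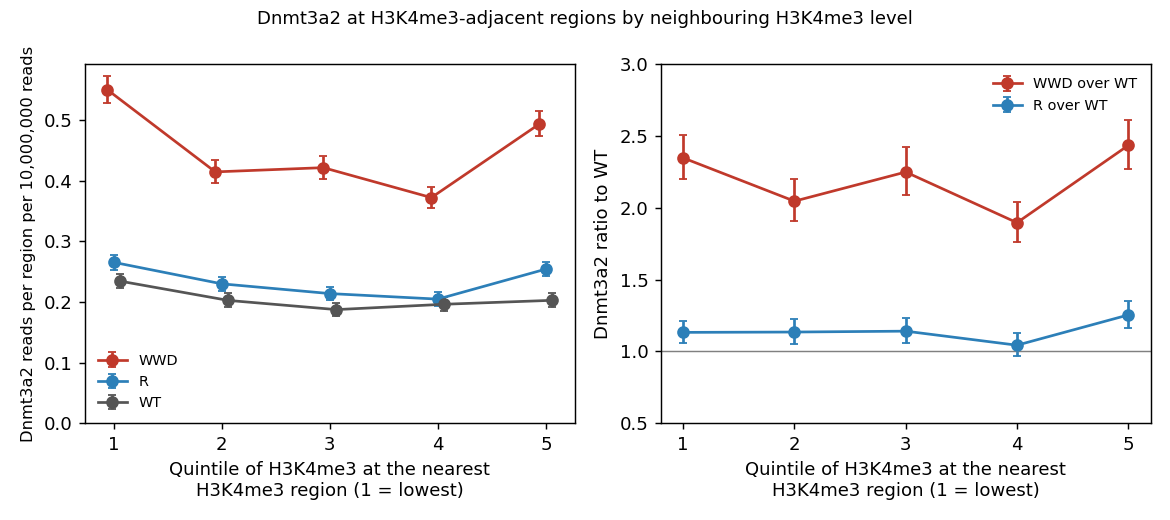
Mean Dnmt3a2 reads per H3K4me3-adjacent region per 10000000 reads (left) and its ratio to WT (right) by quintile of H3K4me3 at the nearest H3K4me3 region, with 95% counting intervals. WWD lies above R and WT in all 5 quintiles, with a ratio to WT between 1.90 and 2.44 and no steady order.

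H3K4me3 itself was lower beside these regions in cells with either altered Dnmt3a2 when counted per library. The median log2 ratio at the neighbours was -0.17 for WWD to WT and -0.28 for R to WT, with 3 reads per 10000000 added to each value. Over the whole H3K4me3 table the medians were -0.13 for WWD and -0.26 for R. Centring each column on its own median over the table took off a shift of -0.134 for WWD and -0.275 for R. On these centred values, the neighbours stood at -0.03 for WWD and -0.01 for R. In WWD cells 997 neighbours were over 2-fold higher than in WT cells (7.60%; 9.27% of the table) and 2060 over 2-fold lower (15.7%; 16.7% of the table). In R cells 1149 were over 2-fold higher (8.75%; 9.65% of the table) and 3365 over 2-fold lower (25.6%; 26.1% of the table). After centring, 1285 neighbours were over 2-fold higher in WWD and 1681 lower, and for R cells 1780 were higher and 2425 lower. With 10 reads per 10000000 added, 432 were higher and 994 lower in WWD cells, while R cells had 617 higher and 1953 lower. The shares given above in percent lie near or below those of the whole table. For the counts after centring or with 10 reads added, shares of the whole table were not computed. Those counts therefore say nothing particular to the neighbours.

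Dnmt3a2 at a region was also read by the change of H3K4me3 beside it. WWD was 2.26-fold above WT where H3K4me3 in WWD cells was over 2-fold lower, 2.17-fold where it was within 2-fold and 2.47-fold where it was over 2-fold higher. R was 0.989 times WT where H3K4me3 in R cells was over 2-fold lower, 1.17-fold above where it was within 2-fold and 1.38-fold above where it was over 2-fold higher (1.23 to 1.54). By shares, a read was found at 13.1% in R and 11.0% in WT in the last class, and at 11.2% in R and 11.4% in WT in the first. Differences at single regions rest on few reads: with 1 read per 10000000 added to each value, 2 reads in WWD, or 3 in R or WT, against 0 pass 2-fold.

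With 1 read per 10000000 added, 1973 regions were over 2-fold higher in WWD than in WT, or 15.0%, against 17% of all H3K4me2 regions. Over 2-fold lower in WWD were 733 regions, or 5.59%, against 7.53% of all H3K4me2 regions. In R, 915 regions were over 2-fold higher than in WT (6.97%; 8.77% of all) and 841 lower (6.41%; 8.66% of all). WWD exceeded R over 2-fold at 1992 regions (15.2%; 17.2% of all) and was over 2-fold lower than R at 810 (6.17%; 7.77% of all). Each share was below that of all H3K4me2 regions, as was the share with any read. The counts depend on the settings: with 2 reads per 10000000 added, 972 regions were higher and 408 lower in WWD than in WT, and 510 higher and 487 lower in R than in WT. At regions read in 2 or 3 columns, 309 were higher and 184 lower in WWD than in WT, and 286 higher and 292 lower in R. Shares of all H3K4me2 regions were not computed at these settings, so such counts say nothing particular to H3K4me3-adjacent regions.

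Most of the regions with the largest differences were read in 1 column and hardly in the others. Ranking by ratio to WT favours regions with few or no reads in the compared column. The region at chr6:91928450-91928549 had 19 Dnmt3a2 reads in WWD and 0 in R and in WT. Against a floor of 3 reads per library, WWD was at least 8.81-fold higher than WT and at least 9.27-fold higher than R. It lay 65 bp from an H3K4me3 region with 12 H3K4me3 reads in WWD cells, 4 in R cells and 18 in WT cells, and that neighbour had 0 Dnmt3a2 reads in each column. The next 4 regions, starting at 68669387 on chromosome 14, 32661594 on chromosome 3, 41411131 on chromosome 4 and 33071814 on chromosome 2, had 15 or 16 reads in WWD and 0 in R and WT. Apart from the last, which had H3K4me3 on both sides, each had 1 H3K4me3 region within 500 bp.

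In the other direction, chr12:112777615-112777714 had 0 reads in WWD, 0 reads in R and 20 reads in WT, so that WWD was at least 4.79-fold lower and R at least 7.01-fold lower than WT. At chr5:34044422-34044521 there were 0 reads in WWD, 9 reads in R and 19 reads in WT. The regions starting at 114893669 on chromosome 5 and at 3404641 and 44413671 on chromosome 9 had 0 reads in WWD and R and 18, 17 and 17 in WT. The region starting at 65655047 on chromosome 7 was likewise among the lowest for R, with 0 reads in WWD and R and 17 in WT.

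For R the highest was chr8:12948606-12948705, with 25 reads in R, 2 in WWD and 0 in WT, where R was at least 7.92-fold higher than WT. It lay 451 bp from its H3K4me3 neighbour, which had 1 H3K4me3 read in WWD, 104 in R and 32 in WT cells. The region starting at 136480804 on chromosome 6 had 25 reads in R, 1 in WWD and 0 in WT. Those starting at 21299454 on chromosome 14 and at 119032164 and 115795555 on chromosome 4 had 23, 22 and 20 reads in R, 0, 2 and 5 in WWD and 0 in WT. Such isolated counts, in single libraries after PCR, are values of these columns and have no replicate.

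Among the 88 regions with a read in each column, chr4:143002048-143002147 was the highest, with 6 reads in WWD, 19 reads in R and 5 reads in WT. Its neighbour had 22 H3K4me3 reads in WWD cells, 30 in R cells and 0 in WT cells. Next came the region starting at 102017866 on chromosome 11, with 5 reads in WWD, 15 reads in R and 10 reads in WT, and the region starting at 71495111 on chromosome 6, with 6 in WWD, 12 in R and 10 in WT. At the region starting at 146866811 on chromosome 4 the order was different, with 2 reads in WWD, 6 reads in R and 21 reads in WT. The region starting at 50509522 on chromosome 7 had 3 reads in WWD, 13 reads in R and 11 reads in WT. R exceeded WWD at all 5 of these regions, whereas over all H3K4me3-adjacent regions WWD exceeded R. The ranking by summed reads favours R, whose reads were more often piled up at single regions. Nothing is therefore read from the order at these 5.

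The 5 regions beside the most H3K4me3 held few Dnmt3a2 reads each. A read in WWD was present at 3 of the 5, and nothing is read from so few. Of all H3K4me3-adjacent regions 25.4% had a read in WWD. The share was 26.7% in the highest quintile of neighbouring H3K4me3 and 29.3% in the lowest. The neighbour of chr8:20020060-20020159 had 738 H3K4me3 reads in WWD cells, 920 in R cells and 782 in WT cells, and the region itself had 6 Dnmt3a2 reads in WWD, 1 reads in R and 0 reads in WT. The neighbour of chr13:66798871-66798970 had 587 H3K4me3 reads in WWD cells, 926 in R cells and 635 in WT cells, and the region had 0 Dnmt3a2 reads in each column. The other 3 of the top 5, starting at 14089882 and 71732583 on chromosome 8 and at 133206872 on chromosome 3, had at most 2 Dnmt3a2 reads in WWD and 0 in R and WT. A count of 0 allows up to 3 reads in that library.

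Regions were also named where H3K4me3 beside them differed most between cells. These neighbours were taken from those above the median H3K4me3 level of 28.6 reads per 10000000. The neighbour at chr8:82204591-82204690 had 171 H3K4me3 reads in WWD cells, 52 in R cells and 4 in WT cells, a log2 ratio of 3.74 for WWD to WT. The region beside it had 2 Dnmt3a2 reads in WWD and 0 in R and WT. At chr15:90509609-90509708 there were 2 H3K4me3 reads in WWD cells, 141 in R cells and 95 in WT cells, a log2 ratio of -3.83 for WWD to WT, and the region beside it had 0 Dnmt3a2 reads in each column.

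For R, the neighbour at chr2:22750845-22750944 had 59 H3K4me3 reads in WWD cells, 177 in R cells and 9 in WT cells, a log2 ratio of 3.12 for R to WT. That at chr1:194979407-194979506 had 211 in WWD, 1 in R and 162 in WT cells, a log2 ratio of -4.73 for R to WT. Of the 11 regions beside these largest H3K4me3 differences, 5 had a Dnmt3a2 read in WWD, 1 in R and 0 in WT, against 25.4% in WWD, 12.0% in R and 11.6% in WT of all H3K4me3-adjacent regions. With so few regions, nothing is read from these counts.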

How the data were processed

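The submitters' processing notes name Bowtie and the build mm9; no version, read filter or way of calling regions was found in the sources. The authors deposited log2 densities per region, and per the file headers every column comes with a total and an effective total. The values fit 1 form: a random amount under 1 was added to the whole reads, the sum was scaled to the effective total, and the log2 of 1 plus the result was written with 2 decimals. Whole reads were recovered by inverting it, so high counts are approximate. This step was tested on simulated data. Distances, exact Poisson, conditional binomial and Clopper-Pearson intervals were computed with scipy 1.17.1 and numpy 2.4.6 under Python 3.11.15. Ratios of ratios have log-scale counting intervals.

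The regions, classes and comparisons were chosen with earlier results of these data known. Named regions are the 5 highest and 5 lowest by log2 ratio to WT with 1 read per 10000000 added, the 5 with the most Dnmt3a2 among those read in each column, the 5 beside the most H3K4me3, and the 3 highest and 3 lowest H3K4me3 neighbours per comparison. A further 2 columns, named for H3K4me1 and H3K4me2, matched no listed sample and were not used. Alternatives covered distance, read cap, filter, pseudocount, centring, chromosomes and the deposited values.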

Additional observations from a re-analysis of the deposited data

How the results depend on the processing

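Of 119 values recomputed for 25 results, 71 moved by less than their error (for counts, stayed within 1.5 times), 47 moved by more and 1 reversed. The 71 include the effective totals, whose outcome is fixed by construction. They also include the cap of 20 reads, which is close to the highest counts at H3K4me3-adjacent regions, 21 in WWD, 25 in R and 21 in WT. In the order WWD to WT, R to WT and WWD to R, Dnmt3a2 ratios at H3K4me3-adjacent regions were 1.28, 1.05 and 1.23 with a read in at least 2 of 3 columns, and 1.80, 1.05 and 1.71 on the deposited values, which hold the random amount. With 250 bp, R to WT was 1.06 and WWD to R 2.07; with 1000 bp, WWD to WT was 2.11 and WWD to R 1.87. Shares with at least 2 reads were 17.2% in WWD, 9.06% in R and 8.97% in WT. With 1000 bp they were 26.2% in WWD, 12.7% in R and 12.4% in WT, and with 250 bp 11.3% in R. The WWD to WT ratio over that of other classes was 1.05 (H3K4me1 only), 0.900 (both, reversed) and 1.07 (neither) with the 2-column filter, 1.20 (both) and 1.27 (neither) with 1000 bp, and 1.28 (neither) with 250 bp. The filter removes regions read in WWD alone by its construction; the cause of the other moves was not tested.

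The median H3K4me3 log2 ratio for WWD was -0.12 with a pseudocount of 10, -0.032 centred and -0.20 on deposited values. For R it was -0.32 with a pseudocount of 1, -0.21 with 10, -0.0099 centred and -0.35 on deposited values. With a pseudocount of 10, WWD cells had 432 neighbours over 2-fold higher and 994 lower, and R cells 617 higher and 1953 lower; centred, R cells had 1780 higher. Counts of regions over 2-fold in Dnmt3a2, higher and lower, were 972 and 408 for WWD to WT, 510 and 487 for R to WT, and 973 and 467 for WWD to R with a pseudocount of 2. With the 2-column filter they were 309 and 184, 286 and 292, and 328 and 181, so for R to WT the order of higher and lower turned. For the counts under these alternatives, shares over all regions were not computed. The ratio at regions over that at H3K4me3 neighbours was 0.777 by shares for WWD to R, an alternative chosen after seeing the data, as were counting neighbours once and the 100 bp limit for both sides.

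No paired analysis was possible because each construct had 1 Dnmt3a2 column and none was left out as a replicate. The 2-column filter was not applied to the splits by distance, side, number, quintile or H3K4me3 neighbour. Overlap in place of distance left no region, and the effective totals give the same ratios by construction. Depth limits single regions: 1 read stood for 0.579 reads per 10000000 in WWD, 0.396 in R and 0.416 in WT.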
